A study of Mus musculus with 1 sample.

Results

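The tetraspanins described here are 7 members of the family known by CD names, Cd9, Cd37, Cd53, Cd63, Cd81, Cd82 and Cd151, chosen by name among the 11918 genes listed for single-cell RNA-seq of alveolar macrophages (AMs). All 7 were listed. The cells came from the lungs of 1 adult mouse (8-12 weeks old, FVB/NJ background backcrossed to C57BL/6) that carried Hdac3fl/fl without a Cre transgene and is called WT. They had been sorted as CD45+CD11c+SiglecF+ cells and loaded as a single 3′ library, so there was no other mouse, no other condition and no test, and every value below describes this library. The library of the HDAC3-deficient mouse of the same study was not analysed here.

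Tetraspanins are small membrane proteins that span the membrane repeatedly, bind one another and their partner receptors sideways, and so sort integrins, Fc receptors, MHC molecules and proteases into patches of the membrane. Cd9 and Cd81 sit mainly at the cell surface, where both bind the immunoglobulin-like proteins Igsf8 and Ptgfrn and hold back the fusion of macrophages into giant cells. Cd63 resides mainly in late endosomes, lysosomes and secreted vesicles. Cd37 and Cd53 are largely restricted to blood cells, while Cd82 and Cd151 are found in many tissues and bind integrins.

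The hallmark of the family is a Cys-Cys-Gly motif in the large extracellular loop. In the coding sequences of GENCODE M21 (GRCm38) a codon triplet for Cys-Cys-Gly lay past the middle of all 7. It is shown because the whole family shares it, and is given here with its flanking codons, 5′ to 3′, with the triplet in capitals:
Cd9: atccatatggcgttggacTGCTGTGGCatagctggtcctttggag
Cd81: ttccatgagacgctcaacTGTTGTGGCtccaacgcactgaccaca
Cd63: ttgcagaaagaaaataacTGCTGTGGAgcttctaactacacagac
Cd53: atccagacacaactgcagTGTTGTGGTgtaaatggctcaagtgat
Cd37: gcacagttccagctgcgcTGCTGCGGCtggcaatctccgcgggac
Cd82: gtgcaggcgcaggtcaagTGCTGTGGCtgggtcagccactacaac
Cd151: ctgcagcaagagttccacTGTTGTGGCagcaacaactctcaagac
The triplet began at codon 150 of 226 in Cd9, 156 of 236 in Cd81, 145 of 238 in Cd63 and 144 of 219 in Cd53. It began at codon 152 of 281 in Cd37, 149 of 266 in Cd82 and 155 of 253 in Cd151.

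The other end of the protein sets Cd63 apart from Cd9, Cd53 and Cd81, since a tyrosine-based motif at the very C-terminus of Cd63 is known to send it to lysosomes. The last 12 codons before the stop were searched for a tyrosine codon followed, after any pair of codons, by a codon for a large hydrophobic residue (second base T), and a match is in capitals:
Cd63: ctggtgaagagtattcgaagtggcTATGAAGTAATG
Cd9: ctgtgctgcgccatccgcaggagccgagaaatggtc
Cd53: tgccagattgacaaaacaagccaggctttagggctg
Cd81: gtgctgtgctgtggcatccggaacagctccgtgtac
Cd63 held the match as its last codons, with 0 codons between it and the stop, and Cd9, Cd53 and Cd81 held none. Cd37, Cd82 and Cd151 had 1 match each, 3 to 5 codons from the stop. A match describes the letters only and says nothing of where the proteins were in these cells.

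On the GRCm38 assembly Cd9 lies on the minus strand of chromosome 6 from 125460266 to 125494791, Cd53 on the minus strand of chromosome 3 from 106759921 to 106790149, Cd63 on the plus strand of chromosome 10 from 128900989 to 128912822, and Cd81 on the plus strand of chromosome 7 from 143052739 to 143067934. Windows of 98 bases, the read length, were taken from the 300 bases at the 3′ end of each member's transcripts. For 6 members no window was found in another annotated gene. For Cd63, 46.5% of the windows were found in its processed pseudogene Cd63-ps, so the count of Cd63 is uncertain by whatever reads were dropped or taken from the copy. Opposite-strand genes overlap Cd9, Cd37, Cd81, Cd82 and Cd151 in the annotation, and the counting is not stated to use strand in the sources used here.

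The library held 2055 cells and 7222978 unique molecular identifiers (UMIs), with 1143 to 8603 UMIs in a cell and a median of 3278. AM genes were abundant: the 20 listed genes of a 21-gene AM list each had a UMI in over 10% of cells, among them Chil3 in 100% and Itgax and Siglecf, the genes of the sorting antigens, in 61.1% and 41.4%. None of the T and NK cell or fibroblast markers sought was listed, and the platelet gene Itga2b, of interest because platelets carry Cd9 and Cd63, had a UMI in 0.195% of cells. The epithelial genes Sftpc and Scgb1a1, which macrophages do not transcribe, had a UMI in 6.86% and 5.50% of cells, a share that free RNA could give. Sftpa1, Sftpb and Sftpd were lower, in 1.41%, 0.389% and 0.243% of cells, so that share depends on the gene taken. By the same measure Hdac3, intact in this mouse, had a UMI in 5.60% of cells.

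Cd9 dominated the family in AMs. It had 48847 UMIs, at least 1 in every cell (100%, exact 95% interval 99.8 to 100), and reached 67.6 UMIs per 10000 UMIs of the library (exact Poisson interval 67.0 to 68.2; both kinds of interval cover counting error only). That placed it at rank 13 of all listed genes, just below Rpl41 at 73.2 and mt-Co3 at 69.4 per 10000. Of the 56224 UMIs of the 7 genes, 86.9% were Cd9. Because the 3′ protocol gives 1 UMI to a captured transcript whatever its length, the levels of genes are compared without division by length.

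Cd53, the leukocyte tetraspanin, came next with 4138 UMIs, in 81.7% of cells (79.9 to 83.3) and at 5.73 per 10000 (5.56 to 5.91), so Cd9 stood 11.8 times higher. Cd63 had 1422 UMIs, in 32.0% of cells (30 to 34.1) and at 1.97 per 10000 (1.87 to 2.07). Cd81 had 1332 UMIs, in 43.6% of cells (41.4 to 45.8) and at 1.84 per 10000 (1.75 to 1.95). The intervals of Cd63 and Cd81 overlap, so the order of these neighbours could not be told at this depth, although Cd81 was seen in more cells.

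The remaining 3 members were each in under 10% of cells. Cd82 had 218 UMIs, in 9.98% of cells (8.71 to 11.4), at 0.302 per 10000 (0.263 to 0.345). Cd151 had 148 UMIs, in 6.72% of cells (5.67 to 7.88), and Cd37 had 119 UMIs, in 5.26% of cells (4.33 to 6.31), at 0.205 and 0.165 per 10000. The share of Cd151 lay between those of Sftpc (6.86%) and Scgb1a1 (5.50%), and that of Cd37 lay below both. Hdac3, intact in this mouse, was in 5.60% of cells, so a share of this size cannot tell expression from free RNA. Neither is read from it for Cd151 and Cd37. The sort left no cell type known to lack these genes, so the epithelial genes were the yardstick available.

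Of 24 further family genes sought, 12 were listed, with 1597 UMIs in all. Tspan14, a partner of the protease Adam10, was the highest with a UMI in 28.6% of cells and 0.969 per 10000, and Tspan31 followed with 18.2% and 0.588. Tspan32 and Tspan5 were in 7.64% and 5.64% of cells, and Tspan17, Tspan4 and Tspan13 in 2.14% to 2.92%. Rom1, Tspan3, Tspan7, Tspan33 and Upk1a were in under 1% of cells. The family in AMs was thus 1 abundant transcript, 3 of middle level and a tail.

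**Figure D1:**
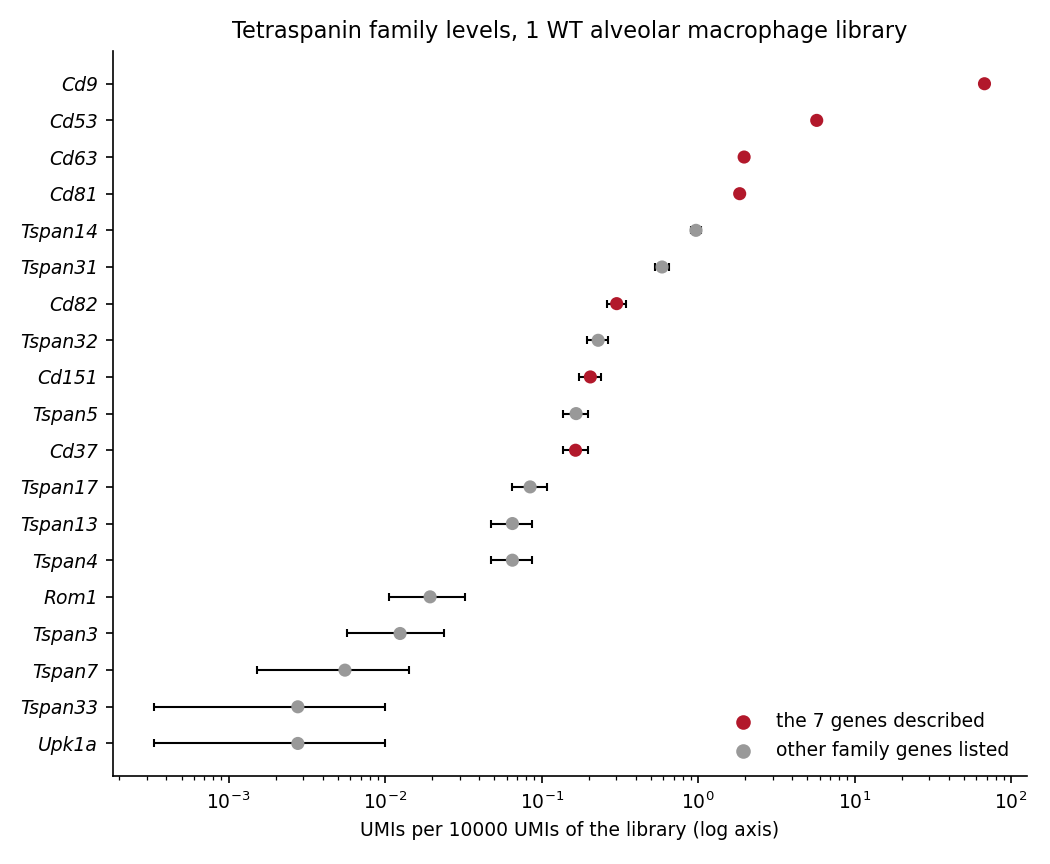
Level of each listed tetraspanin gene in the WT library as UMIs per 10000 UMIs on a log axis, with exact 95% Poisson bars that cover counting error only; red points are the 7 genes described and grey points the other 12 family genes listed. Cd9 at 67.6 stands apart from Cd53 at 5.73, and Cd63 and Cd81 lie side by side at 1.97 and 1.84.

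The cells differed in how much of each gene they held. The level of Cd9 ran from 4.44 to 295 UMIs per 10000 among cells, with a 5th percentile of 21.2, a median of 59.0 and a 95th percentile of 128, a ratio of 6.04 between those percentiles. The spread beyond counting error, given as an excess squared coefficient of variation (0 where cells differ by counting alone), was 0.187 for Cd9, 0.0437 for Cd53 and 0.164 for Cd81. Without the 1% of cells with the highest level of each gene it was 0.173 for Cd9, 0.0134 for Cd53 and 0.0995 for Cd81, and at no more than 5% mitochondrial UMIs that of Cd53 was 0.0254. By this measure Cd9 was 15th of the 39 genes with at least 20000 UMIs, so its spread was ordinary for a gene of its abundance.

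Cd63 was different: its UMIs were concentrated in few cells. Its excess squared coefficient of variation was 2.33, which was rank 6 of the 574 genes with 1000 to 2000 UMIs (median 0.0973), where Cd81 was rank 145. Counting alone would have put a Cd63 UMI in 47.9% of cells instead of the 32.0% seen, whereas the 43.6% of Cd81 was near the 45.9% that counting gives. Cells with 4 or more Cd63 UMIs numbered 107 where counting alone gives 19.7, and they held 41.9% of all Cd63 UMIs. The 103 cells (5%) richest in each gene held 40.8% of the UMIs of Cd63, 25.2% of those of Cd81 and 14.9% of those of Cd9. At nearly the same total, Cd81 was spread over AMs and Cd63 was gathered in a minority of them.

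**Figure D2:**
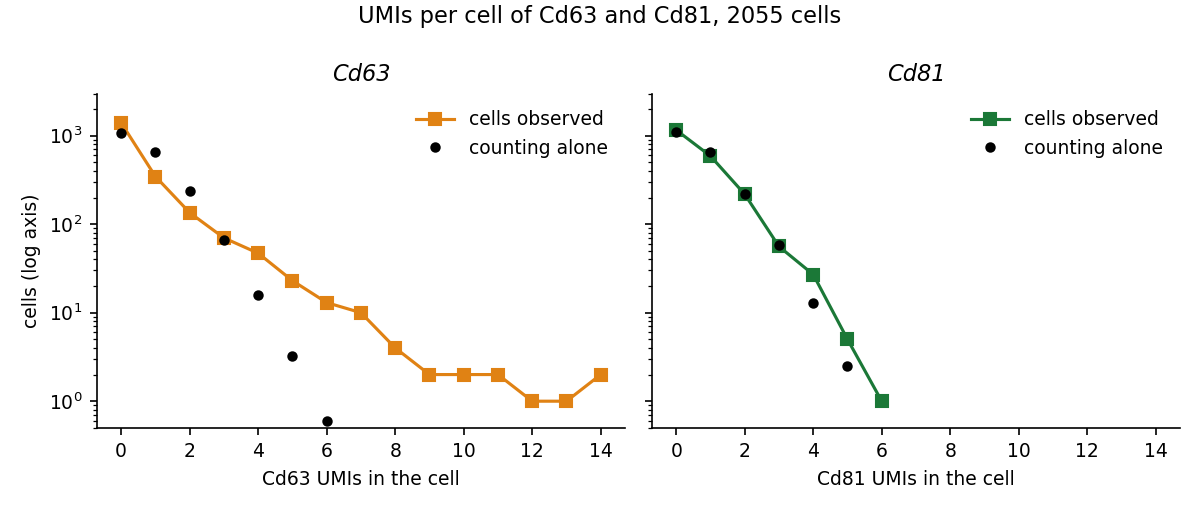
Number of cells (log axis) with each number of UMIs of Cd63 (left, orange squares) and Cd81 (right, green squares) among 2055 cells; black dots are the numbers that counting alone would give from each cell's total. Cd63 exceeds counting at 0 UMIs and from 4 UMIs on, with 1397 cells at 0 and 107 at 4 or more, while Cd81 follows the dots closely up to 3 UMIs.

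Joint and opposing variation was measured as the Pearson correlation of the deposited log values over the 2055 cells. These cells share a library and differ in depth, cells are not replicates, and counting noise pulls the correlation of a sparse gene towards 0, so each r is a description. Among the 21 pairs of members 3 reached r = 0.1, all with Cd9: Cd53 at 0.198, Cd63 at 0.170 and Cd81 at 0.154. These are the 3 other members detected in at least 10% of cells, and 7.46% of all genes so detected reached 0.1 with Cd9. Thinned to 1500 UMIs in every cell, the r with Cd9 was 0.107 for Cd53, 0.118 for Cd63 and 0.0503 for Cd81, so 2 pairs then reached 0.1. The other 18 pairs lay between -0.0165 and 0.0618. No pair reached -0.1.

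With counting variance removed, which was done only for genes with at least 1000 UMIs, the correlation of Cd9 was 0.812 with Cd53, 0.386 with Cd81 and 0.227 with Cd63. The first of these values rests on the small excess spread of Cd53, which moved with 1% of the cells, and no order of the 3 pairs is read from them. Cd63 and Cd81 had r = 0.00349, which was -0.0179 in the deposited scores and -0.0123 after thinning, so no relation between them was seen at this depth.

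Levels across cells ordered by Cd9 show the sizes. From the lowest to the highest of 4 equal groups of cells, Cd9 went from 29.1 to 49.2, 71.2 and 111 UMIs per 10000. Cd63 went from 0.977 to 1.67, 2.18 and 2.79, a ratio of 2.86 between the ends. Cd81 went from 1.38 to 1.68, 2.01 and 2.18, a ratio of 1.58, and Cd53 from 4.65 to 5.25, 5.81 and 6.92, a ratio of 1.49. In these 3 genes the intervals of the end groups did not overlap. Cd37, Cd82 and Cd151 had end ratios of 1.14, 0.906 and 0.768 with overlapping intervals. The median depth of the groups rose too, from 2640 to 3714 UMIs per cell, and the log value of Cd9 had r = 0.249 with depth. Within 4 groups of cells of like depth the r of Cd9 with Cd63 was between 0.108 and 0.197 and that with Cd53 between 0.114 and 0.244. With Cd81 it was 0.162, 0.0848, 0.130 and 0.0580 from the shallowest to the deepest group, below 0.1 in 2 of the 4.

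**Figure D3:**
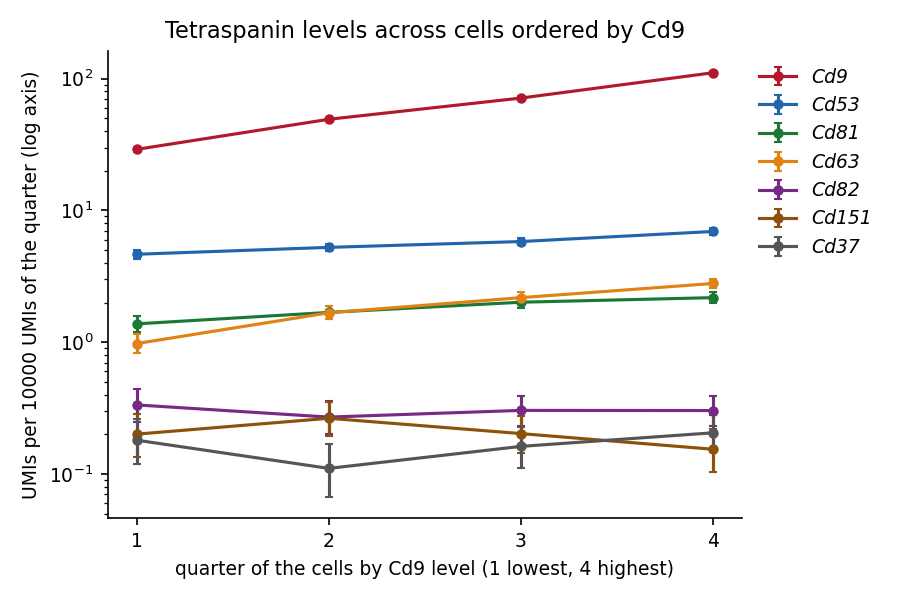
UMIs per 10000 of each member (log axis) in 4 equal groups of cells ordered by their Cd9 level, with exact 95% Poisson bars for counting error. Cd63 (orange) climbs from 0.977 to 2.79 and crosses Cd81 (green), which goes from 1.38 to 2.18; Cd82, Cd151 and Cd37 show no trend beyond their bars.

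The cells were also grouped the other way, by their Cd63 UMIs. The groups are unequal and the genes differ in spread, so these ratios are not comparable with those across Cd9 groups. Cells with 0, 1, 2, 3 and at least 4 Cd63 UMIs held 64.1, 68.6, 74.1, 76.6 and 84.7 Cd9 UMIs per 10000, a ratio of 1.32 between the ends. Cd53 was at 5.73 and 6.07 and Cd81 at 1.85 and 2.00 in the end groups, with overlapping intervals. The Cd63-rich cells were also deeper, with a median of 4416 UMIs against 3027 in cells without Cd63. The genes that earlier results named beside Cd63 were higher there too. Wfdc17, a secreted protein with a WAP domain, went from 2.87 through 4.20, 6.78 and 3.89 to 9.32 per 10000 over the same 5 groups. Ctsk, the collagen-degrading cathepsin K, went from 1.85 through 2.34, 3.34 and 3.86 to 3.71, and Crip1, a small LIM-domain protein, from 3.64 through 6.01, 4.89 and 7.40 to 5.69. These genes had been chosen on these cells, so their values are no independent support.

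The 10 highest and 5 lowest genes by r with Cd9 were each in over 91% of cells. The measure favours such genes, since counting noise pulls r towards 0 in sparse ones, so their abundance is not read as a result. Among 4022 genes detected in at least 10% of cells, 300 (7.46%) had r of at least 0.1 with Cd9. Of the same genes 47 (1.17%) had r of -0.1 or below, and the median was 0.00199. In the deposited scores, which remove depth and mitochondrial share, these counts were 143 and 102. Lyz2, lysozyme, led with 0.517, and went from 113 to 214 per 10000 between the end groups of cells by Cd9. Ctss (cathepsin S) followed at 0.452, Chil3 (a chitinase-like secreted protein) at 0.442, Fcer1g (the Fc receptor gamma chain) at 0.419 and B2m (the MHC class I light chain) at 0.359. Ubb, Lgals3, Tyrobp, Cyba and Ear2 lay between 0.300 and 0.340. At the other end stood the translation genes Rpl41 at -0.300, Tpt1 at -0.240, Rplp1 at -0.207 and Rps29 at -0.205, and Gm10076 at -0.183. Reads of some of these genes cannot always be told from those of other genes that hold the same 3′ sequences. The shared part was 29.7% for Rpl41 (most often with Gm10076) and 81.8% for Ubb (Gm1821). It was 35.5% for Rplp1 (Gm10073), 36.5% for Rps29 (Gm14303) and 3.45% for Lyz2 (Lyz1). Genes with symbols starting Rpl or Rps, taken by symbol alone, did not move as a set: of 87 tested, 8 were at -0.1 or below and 12 at 0.1 or above. Over all genes tested the shares were 1.17% and 7.46%.

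The correlations with Cd63 were weaker. Of 4022 genes, 25 (0.622%) reached r = 0.1 and 0 (0%) reached -0.1. Wfdc17 led with 0.186, followed by Cd9 itself at 0.170, B2m at 0.164, Gpnmb, a lysosomal membrane glycoprotein, at 0.163, the zinc transporter gene Slc39a2 at 0.156, Crip1 at 0.154, Ctss at 0.153, Ctsk at 0.147, Lyz2 at 0.143 and S100a1 at 0.139. The lowest were Tmsb4x (thymosin beta) at -0.0928, the histone gene H3f3b at -0.0912, Rplp1 at -0.0772, the hyaluronan receptor gene Cd44 at -0.0755 and Rps29 at -0.0745. When every cell was thinned to 1500 UMIs, 5 genes reached 0.1. Values this small in sparse counts order the genes only loosely.

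Cd9 and Cd63 shared part of their neighbours. With the pair itself left out, 15 genes reached 0.1 with both, which is 62.5% of the 24 genes of Cd63 and 5.02% of the 299 genes of Cd9. Over all genes tested, 7.46% reached 0.1 with Cd9 and 0.622% with Cd63. Cd9 and Cd63 had r = 0.170 with each other and 0.249 and 0.131 with depth, and the overlap was not matched for abundance or depth. Lyz2, Ctss, B2m, Lgals3, Fcer1g and Cyba were among the shared genes. Chil3, Ubb, Tyrobp and Ear2, also of the 10 highest for Cd9, were not. Gpnmb, Crip1 and Ctsk reached 0.1 with Cd63 and had r of 0.0641, 0.0335 and 0.0834 with Cd9. After thinning their r with Cd63 was 0.0612, 0.0951 and 0.113, and the lowest within depth groups was 0.0661, 0.0719 and 0.112. Gpnmb and Crip1 thus did not stay above 0.1 with Cd63, and the contrast with Cd9 was not stable for them. Ear2 and Chil3, high for Cd9 at 0.300 and 0.442, had 0.00104 and 0.0589 with Cd63.

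**Figure D4:**
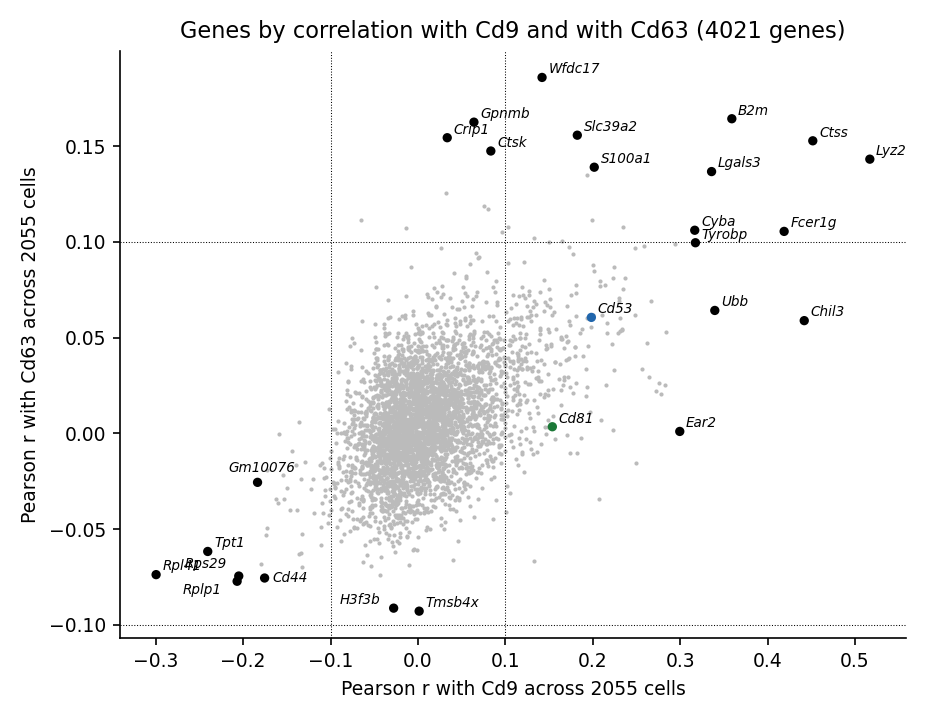
Each gene detected in at least 10% of cells by its Pearson r with Cd9 (horizontal) and with Cd63 (vertical) across 2055 cells; dotted lines mark 0.1 and -0.1, black points are the highest and lowest genes for either, and Cd53 and Cd81 are coloured. Lyz2, Ctss and B2m are high for both, and Chil3 and Ear2 mainly for Cd9. Gpnmb, Crip1 and Ctsk reach 0.1 with Cd63 and not with Cd9, which for Gpnmb and Crip1 did not hold after thinning.

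Gene lists for the membranes, partners and cell state of tetraspanins were set beside both genes. Of 34 endosome, lysosome and exosome genes tested, 8 reached 0.1 with Cd9 and 0 reached -0.1, with a median r of 0.0539. Over all 4022 genes tested, 7.46% reached 0.1 with Cd9 and 1.17% reached -0.1, with a median of 0.00199. With Cd63 5 of the list reached 0.1 (0.622% of all genes did), with a median of 0.0540 against 0.00571 over all genes. For Cd9 the highest were the proteases Ctss (0.452), Ctsz (0.258) and Ctsl (0.199) and the small membrane protein Laptm4a (0.200). For Cd63 they were Ctss (0.153), Ctsk (0.147), the sphingolipid activator Psap (0.111), Ctsl (0.111) and, as the fifth, Ctsd (0.102). Psap was at -0.0656 with Cd9.

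The list of partner genes was set beside Cd9 too. Of 17 tested, 2 reached 0.1 (7.46% of all genes did), Fcer1g (0.419) and the Fc receptor gene Fcgr3 (0.173), and 1 reached -0.1, Cd44 (-0.175); the next was Cd36, the scavenger receptor gene, at 0.0704, and the median was 0.0356. With Cd63, Fcer1g was at 0.106, Fcgr3 at 0.0972, Cd36 at 0.0919 and Itgax at 0.0761. The direct ligands of Cd9, Igsf8 and Ptgfrn, chosen for naming after their values were seen, had r of -0.00296 and -0.000331 with it. They were seen in 13.1% and 28% of cells.

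The actin cytoskeleton list, to which tetraspanins are tied through ezrin-type linkers, had 14 of 28 genes at 0.1 or above with Cd9. It had 1 below -0.1, Actb at -0.137, and a median of 0.0870. In the deposited scores the counts were 10 and 1, and Actb was at -0.0950. Over all genes tested 7.46% and 1.17% reached 0.1 and -0.1, with a median of 0.00199. The 30 genes of the actin list were in a median of 86.2% of cells, and these shares were not matched for abundance. Lgals3 (0.336), S100a11 (0.257), Myl6 (0.237) and S100a10 (0.231) were the highest, which are a galectin, S100 proteins and a myosin light chain rather than actin itself. The linker genes Ezr and Msn were at -0.0329 and -0.00945 with Cd9, and the actin gene Actg1 at -0.0881. No tie of Cd9 to actin or to its linkers is read from the list. The AM identity list had 7 of 20 genes at 0.1 or above with Cd9, beside 7.46% of all genes, and 0 at -0.1. Chil3 (0.442), Ear2 (0.300), Ear1 (0.279) and the leukotriene C4 synthase gene Ltc4s (0.272) were the highest. With Cd63 the same list had 2, Fabp4 (0.105) and Ctsd (0.102), beside 0.622% of all genes.

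Immediate-early genes, many of them transcription factors of the rapid response to stress and growth signals, leaned against Cd9. Of 18 tested, 0 reached 0.1 and 4 reached -0.1, which were Fosb (-0.154), Nr4a1 (-0.133), Ier5 (-0.133) and Junb (-0.129). Over all genes tested 7.46% and 1.17% did so. The median of the 18 was -0.0348, against 0.00199 over all genes. With Cd63 none of the 18 reached either threshold. Of the chemokine and cytokine list 0 of 9 genes and of the cell cycle list 0 of 5 reached a threshold with Cd9 or Cd63. Only these 5 of 20 cell cycle genes passed the detection limit: H2afz, Hmgb2, Tubb5, Pcna and Stmn1. Top2a and Birc5 were among those that did not, and in the deposited scores Hmgb2 was at -0.112 with Cd9. Of the MHC class II list 1 of 5 reached 0.1 with Cd9, H2-DMa, a chaperone of peptide loading, at 0.215. H2-Aa, Cd74 and H2-Ab1 lay between -0.0338 and -0.0111 with Cd9 and between 0.0328 and 0.0699 with Cd63.

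The members were then followed over 7 clusters of cells made without any tetraspanin gene, described here by their leading genes. Cd9 was lowest at 53.1 per 10000 (51.1 to 55.2) in 111 cells led by Hist1h2ap, Aspm, Casc5, Cenpf and Kif15, a cycling-like group, and at 60.4 (59.4 to 61.5) in 617 cells led by Hspa1b, Hspa1a, Rhob, Nr4a2 and Apoc1. It was highest at 90.4 (88.2 to 92.7) in 221 cells led by Clec2d, Txnip, Lars2 and 2510002D24Rik. The other 4 clusters lay between 64.6 and 72.7. They were led by Ifi27l2a, S100a6, Cav1, Chchd4 and Mapkap1 (541 cells), by Rpgrip1, Slc39a1, Abhd2, Clasp2 and Actb (265 cells), by H2-Eb1, H2-Aa, H2-Ab1, Cd74 and H2-DMb1 (185 cells, MHC class II-like) and by Ereg, Cxcl3, Cxcl1, Cxcl10 and Nfkbiz (115 cells, chemokine-like). The highest cluster was 1.70 times the lowest for Cd9 and 1.32 times for Cd53. Cd53 was at 5.04 (4.43 to 5.72) in the cycling-like cells and 6.64 (6.05 to 7.27) in the Clec2d and Txnip cells. The first interval overlaps 5.36 (5.05 to 5.68) in the Hspa1b cells, and the second 6.07 (5.73 to 6.43) in the Ifi27l2a cells. Which cluster was lowest or highest for Cd53 was thus not resolved.

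Cd63 was lowest in the cycling-like cells, at 0.768 per 10000 (0.541 to 1.06), with 37 UMIs in 111 cells, against 1.48 (1.33 to 1.66) in the Hspa1b cells and 2.57 (2.35 to 2.81) in the Ifi27l2a cells, where it was highest. Cd81 was highest in the cycling-like cells at 2.47 (2.05 to 2.96), followed by the Clec2d and Txnip cells at 2.32 (1.98 to 2.70), an interval that overlaps it. It was 1.60 (1.24 to 2.03) in the chemokine-like cells and 1.65 (1.48 to 1.83) in the Hspa1b cells. The cycling-like cells were the deepest, with a median of 4157 UMIs. With all cells thinned to 1500 UMIs a Cd63 UMI remained in 10.1% of them (24.3% unthinned) and a Cd81 UMI in 27.5% (57.7% unthinned), against 14.5% to 25.6% and 18.0% to 25% in the other clusters. Thinning left out 2 of the cycling-like cells and 6 to 32 cells of each other cluster. The MHC class II-like cells were among the higher for Cd63 at 2.49 (2.13 to 2.89) and at 1.70 (1.41 to 2.04) for Cd81.

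**Figure D5:**
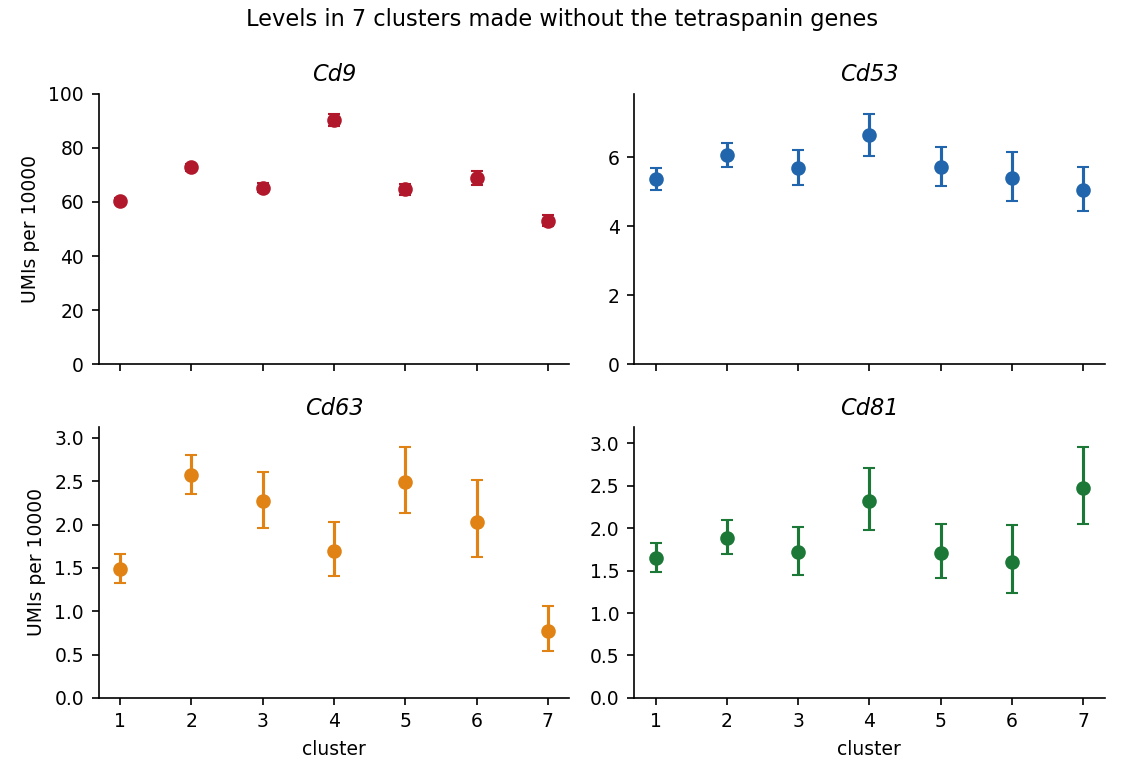
UMIs per 10000 of Cd9, Cd53, Cd63 and Cd81 in the 7 clusters, with exact 95% Poisson bars for counting error and axes from 0; 1 Hspa1b, 2 Ifi27l2a, 3 Rpgrip1, 4 Clec2d and Txnip, 5 MHC class II-like, 6 chemokine-like and 7 cycling-like cells. Cd9 peaks in cluster 4 at 90.4, and in cluster 7 Cd63 is at its lowest (0.768) while Cd81 is at 2.47, beside 2.32 in cluster 4 with overlapping bars.

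The correlations were also taken within the clusters. The r of Cd9 with Lyz2 lay between 0.382 and 0.559 and that with Cd53 between 0.101 and 0.332. The r of Cd9 with Cd63 lay between 0.0925 and 0.259 in 6 clusters and was 0.0122 in the cycling-like cells, where Cd63 had few UMIs. The r of Cd9 with Cd81 lay between 0.0809 and 0.193.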

How the data were processed

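Single-cell RNA-seq was analysed for AMs of 1 WT mouse (1 library, 10x Genomics 3′ v2 chemistry, 98-base reads, 5000 sorted cells loaded). The authors counted UMIs with Cell Ranger on mm10 and processed them with Seurat. They deposited natural log values, ln(1 + x) with x a gene's UMIs per 10000 in the cell, and a scaled score in which the log value was regressed on UMIs per cell and mitochondrial share and capped at 10. Their methods state limits of 300 and 2500 genes per cell and of 5% mitochondrial reads; 384 cells (18.7%) were above 5% when the share was recomputed from the listed genes. No doublet caller was run here.

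Whole UMI counts were recovered from the log values (100% of values above 0 were whole within 1e-06). Shares of cells have exact Clopper-Pearson and levels exact Poisson 95% intervals, which cover counting error only. Correlations used the deposited log values of genes with a UMI in at least 10% of cells, with r of 0.1 and -0.1 as thresholds of size. The excess squared coefficient of variation is the variance of UMIs less its counting part, divided by the squared mean. Clusters came from the deposited scores of the 500 most dispersed genes outside the tetraspanin family, 15 principal components, 30 neighbours and Louvain clustering at a resolution of 0.8 (Seurat 5.3.0, R 4.3.3). For the thinned values each cell was reduced to 1500 UMIs, which left out 109 shallower cells. Other steps used Python 3.11.15, numpy 2.4.6, scipy 1.17.1 and pandas 2.3.3, and the measures were tested on simulated data. Positions and coding sequences were taken from GENCODE M21 on GRCm38 by gene symbol.

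The 7 genes and the gene lists were chosen with earlier results of these data known. Named genes were the 7 members, other listed tetraspanins, the 10 highest and 5 lowest correlations with Cd9 and with Cd63, the 4 largest in each list, the 5 leading genes of each cluster, and Ctsk, Wfdc17 and Crip1, apart from 1 leading gene that is not reported here; any further gene was named after its values were seen. Alternatives were other log constants, Spearman correlation, the deposited scores, thinning, at most 5% mitochondrial UMIs, no cycling-like cells, other detection limits and other cluster settings. With 1 library no test between samples was possible.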

Additional observations from a re-analysis of the deposited data

How the results depend on the processing

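No paired analysis was possible because there was 1 library. The correlations of Cd9 and of Cd63 with the 10 highest and 5 lowest genes of each kept their sign in 330 of 330 values. These genes were chosen as the extremes in these same cells, so a kept sign is no independent support. Sizes did move: Cd63 with Gpnmb went from 0.163 to 0.0612 after thinning, and Cd9 with Ubb from 0.340 to 0.173 in the shallowest group. The correlation of Cd63 with Cd81, near 0, changed sign: it was -0.0861 in depth group 2 and 0.0411 in group 4. The level of Cd9 was 64.9 per 10000 as a mean over cells. The r of Cd9 with Cd63 was 0.118 after thinning, 0.108 in the deepest group of cells and 0.107 without the 107 cells with 4 or more Cd63 UMIs, an alternative chosen, like the depth groups, after seeing the data. Counts of genes moved more. At 0.1 or above with Cd9 (300) they were 143 in the deposited scores, 79 after thinning and 145 in the shallowest group. At -0.1 or below (47) they were 102 in the scores, 26 and 117 with constants of 0.1 and 10 in the log, 84 by Spearman and 265, 278, 253 and 482 within depth groups. With Cd63 (25 and 0) they were 16 and 2 in the scores, 5 above after thinning, 2 below with a constant of 10, and 1 below at no more than 5% mitochondrial UMIs. Within depth groups they were 59, 86, 78 and 102 above and 31, 89, 55 and 85 below. Such a group holds 513 or 514 cells. The cause of the moves in all these counts was not tested. Of the other alternatives to these main values, 71 stayed close. Depth limits Cd37, Cd82 and Cd151, with at most 2 UMIs in a cell.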

Other observations

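Markers of other cells were set beside the tetraspanins. Fn1 (2295 UMIs) and Epcam (2178 UMIs) each had more UMIs than Cd63 or Cd81. Jchain (1006 UMIs), Apoe (435 UMIs) and S100a8 (278 UMIs) each had more than Cd82, Cd151 or Cd37. The highest of each list were Fn1 of the monocyte list (52.7% of cells), Epcam of the lung epithelial list (58.1%), S100a8 of the neutrophil list (10.1%), Apoe of the interstitial macrophage list (9.0%), Vwf of the endothelial list (5.01%), Jchain of the B cell list (3.21%), Ccr7 of the dendritic cell list (0.341%) and Itga2b of the platelet list (0.195%). Fn1 and Epcam are also known in AMs. The r with Cd9 was -0.0323 for Fn1, 0.0858 for Epcam and 0.0674 for S100a8, and with Cd63 it was 0.0362, -0.0447 and 0.0741.

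Tspan14 and Tspan31, the tetraspanins outside the 7 that passed the detection limit, had r of -0.0258 and 0.0242 with Cd9 and 0.0148 and 0.0140 with Cd63. Adam10, the protease that Tspan14 escorts to the surface, was seen in 27.5% of cells and had r of 0.0420 with Cd9.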
